A study of Mus musculus with 16 samples.

Results

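Base excision repair removes small chemical lesions from DNA and shares its last steps with the repair of single-strand breaks. The genes described here are 10 components of that pathway that work beside the damage sensors Parp-1 and Parp-2: the DNA glycosylases Ung, Smug1, Ogg1, Mutyh, Neil1, Neil3 and Tdg, the scaffold Xrcc1, the gap-filling polymerase Polb and the DNA ligase Lig3. A gene was taken from the array rows whose annotation gave its symbol and no other, which left 9 of the 10 genes with 1 row each among 19937 genes with such a row. Tdg had 4 rows, each listed with a further symbol, and no level is given for it.

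Messenger RNA was measured on 16 Affymetrix Mouse Gene 1.0 ST arrays, with 1 pool of sorted bone marrow cells from at least 3 C57BL/6J mice on each. LSK cells carry no lineage markers and express Sca1 and c-Kit, a population that holds haematopoietic stem cells and the earliest progenitors. MP cells are myeloid progenitors, lineage-negative and c-Kit-positive without Sca1. The 8 groups of 2 pools were Parp-2-/- LSK, WT LSK, Parp-2-/- MP and WT MP cells, each 2.5 hours after 5 Gy of gamma radiation (IR) and unirradiated. Loss of Parp-2 is the 1 genetic change the labels give for Parp-2-/- mice, both genotypes share the C57BL/6J background, and the age of the mice is not given in the sources used here. Pools were treated as separate samples, 2 a group. The fit gave each gene 1 spread between pools, combined over the 8 groups, and the p-values rest on it. The standard error of a gene was therefore the same in LSK and in MP comparisons.

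A glycosylase cuts a damaged or wrong base from the DNA backbone and leaves a site without a base. The AP endonuclease Apex1 nicks the backbone there, Polb fills the gap, and Lig3, held by Xrcc1, seals it. Parp-1 and Parp-2 bind such nicks and build poly(ADP-ribose) chains, which recruit Xrcc1 and are later removed by the glycohydrolase Parg. Ionising radiation makes oxidised bases and single-strand breaks, lesions on which some of these enzymes act, while Ung and Smug1 remove uracil.

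Values are log2 intensities as deposited, a difference of 1 standing for a factor of 2, and differences were tested with limma on all 22961 annotated rows. A gene is said to have been called when its Benjamini-Hochberg adjusted p was under 0.05. Array medians lay between 4.74 and 4.92. Over all rows the 2 pools of a group correlated at 0.934 to 0.948 in LSK cells and 0.979 to 0.985 in MP cells. The shared standard error does not follow this difference, which limits setting p-values and counts of LSK cells beside those of MP cells. Parp2 read 5.70 to 7.11 on the 8 Parp-2-/- arrays and 7.40 to 8.40 on the 8 WT arrays, with no overlap (limma, averaged difference -1.43 ± 0.13 SE, adjusted p = 0.000936). Of the LSK and stem cell markers with a row, 6 of 8 were called higher in LSK cells, and all 8 granulocyte and monocyte and 6 of 7 erythroid and megakaryocyte progenitor markers were called lower. Of the markers of mature cells with a row, none of 5 for B cells, 5 for T and NK cells and 6 for neutrophils and 1 of 6 for macrophages was above the array median on all arrays. Some were above it on part of the arrays: the neutrophil gene S100a8 on 8 arrays (LSK minus MP -2.51 ± 0.16), the macrophage gene Vcam1 on 14 (-0.72 ± 0.17) and the B-cell gene Pax5 on 6 (0.38 ± 0.10), all 3 called by limma (adjusted p = 1.6e-06, 0.00695 and 0.0118).

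The promoters of Ung, Ogg1 and Mutyh are printed because these 3 genes had the smallest share of their variation between the pools of a group. Each run covers 250 bases before and 50 bases after the RefSeq start in the mouse build GRCm38.p6, 5′ to 3′ on the gene's own strand, which is the plus strand for all 3. Capitals mark the GC box GGGCGG and the CCAAT box CCAAT, searched on both strands. The windows are chr5:114130185-114130484 for Ung, chr6:113326726-113327025 for Ogg1 and chr4:116807484-116807783 for Mutyh, where the 5′-most of 2 listed starts was used.
Ung: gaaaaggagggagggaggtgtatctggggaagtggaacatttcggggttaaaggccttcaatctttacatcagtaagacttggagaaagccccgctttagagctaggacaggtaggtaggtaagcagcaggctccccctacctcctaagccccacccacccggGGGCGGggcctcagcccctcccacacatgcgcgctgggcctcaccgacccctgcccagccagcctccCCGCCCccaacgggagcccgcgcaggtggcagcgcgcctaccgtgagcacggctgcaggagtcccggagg
Ogg1: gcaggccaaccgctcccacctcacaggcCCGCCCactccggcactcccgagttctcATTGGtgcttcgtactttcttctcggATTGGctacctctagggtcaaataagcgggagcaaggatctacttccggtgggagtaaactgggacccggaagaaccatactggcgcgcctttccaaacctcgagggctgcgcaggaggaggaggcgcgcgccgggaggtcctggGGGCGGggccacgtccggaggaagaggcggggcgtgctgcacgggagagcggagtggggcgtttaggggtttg
Mutyh: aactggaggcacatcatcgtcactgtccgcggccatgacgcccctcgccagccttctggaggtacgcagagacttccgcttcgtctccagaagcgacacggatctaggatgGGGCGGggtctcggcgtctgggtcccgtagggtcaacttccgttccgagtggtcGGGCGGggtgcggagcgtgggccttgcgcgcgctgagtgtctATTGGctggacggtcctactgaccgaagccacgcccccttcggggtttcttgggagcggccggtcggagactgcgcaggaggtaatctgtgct
Each of the 3 windows held 2 GC boxes, a motif found in 35.7% of the 32851 promoters of this length. Ogg1 had 2 CCAAT boxes and Mutyh had 1, against 37.4% of all promoters with any, and Ung had none. The E2F forms TTTCCCGC and TTTGGCGC, found in 1.07% and 0.514% of promoters, matched none of the 9 windows available for the 10 genes. GC content was 64.7% for Ung, 64.7% for Ogg1 and 65% for Mutyh.

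The 9 genes differed in how closely the pools of a group matched. The standard deviation between pools, combined over the 8 groups, was 0.085 for Ung, 0.093 for Mutyh, 0.14 for Smug1 and 0.18 for Ogg1, against a median of 0.21 over all tested rows. It was 0.22 for Xrcc1, 0.24 for Neil1, 0.26 for Lig3, 0.40 for Polb and 0.42 for Neil3. Spread between pools made up 13.1% of the total sum of squares of Ung, 14.4% of that of Mutyh and 26.1% of that of Ogg1. For the other 6 genes it made up 46.6% (Polb) to 75% (Neil1), where the median over all rows was 36.9%. The widest gap between 2 pools of a group was 1.34 for Polb in WT LSK IR cells, followed among the 9 genes by 1.21 for Neil3 in Parp-2-/- LSK IR cells. Neil1 lay below the array median on all 16 arrays and Smug1 on all but 2. Mutyh and Ung lay just above the median, on 14 and 15 of 16 arrays, and the other 5 genes were above it on all 16.

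**Figure D1:**
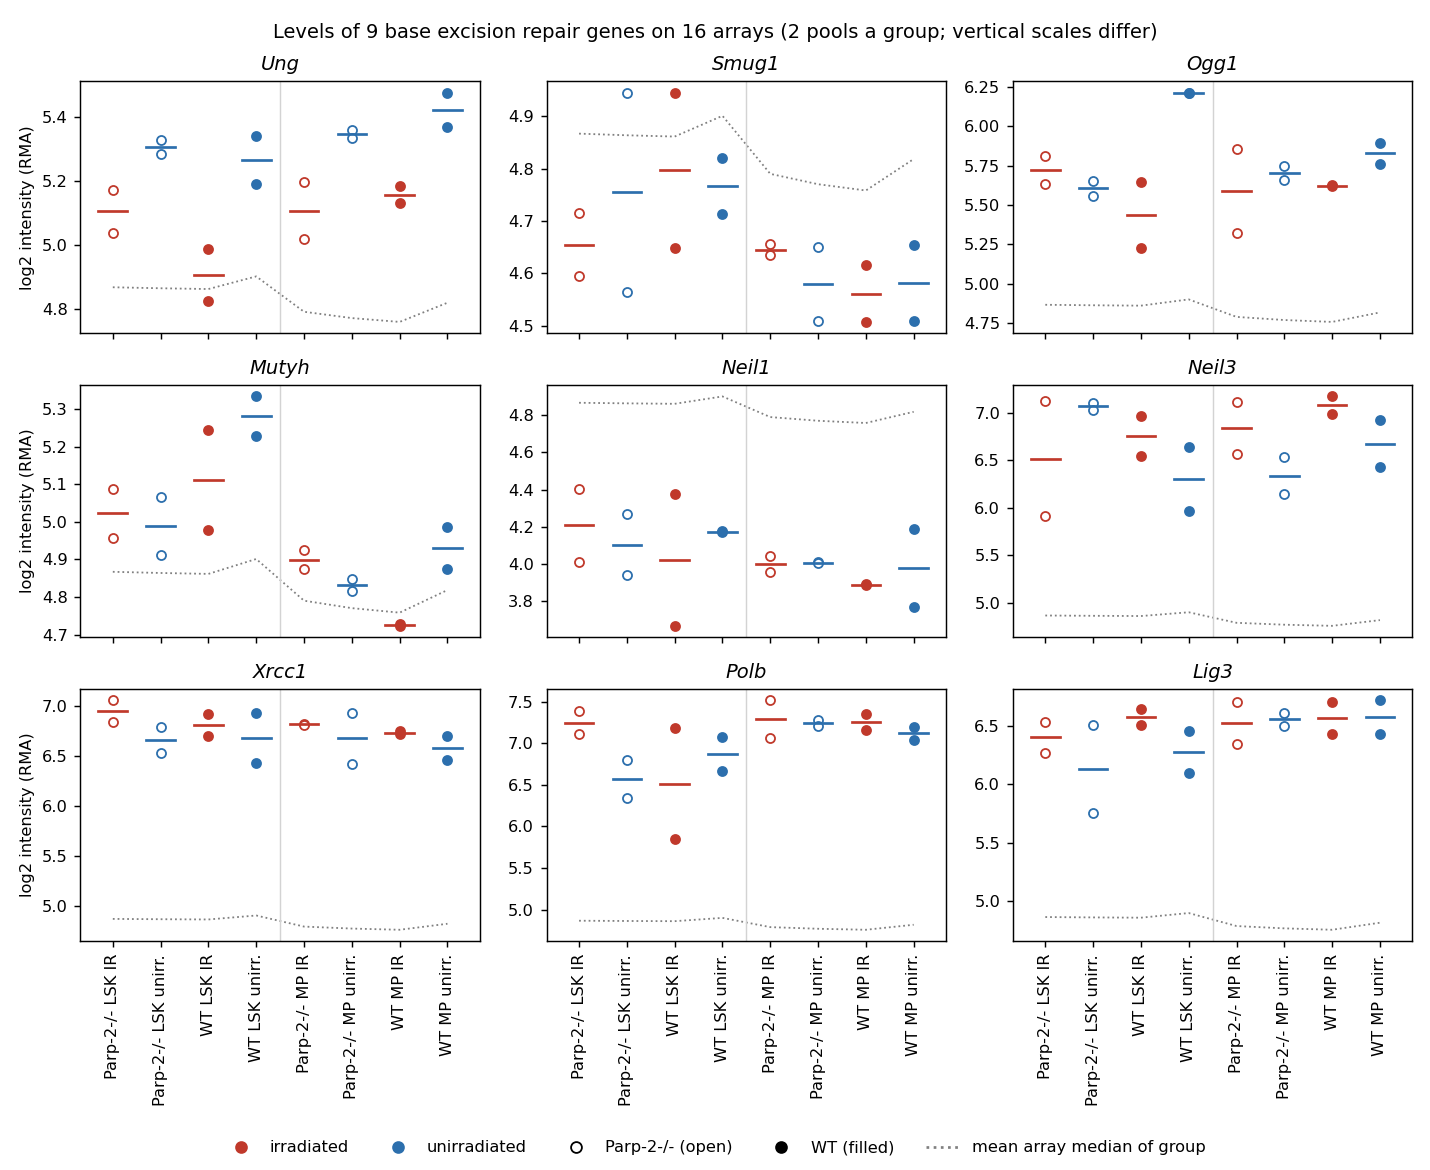
Log2 level of the 9 measured genes on each of the 16 arrays, by group, with a point for each pool, a bar at the mean of the 2 pools and a dotted line at the array median. Ung is lower in each irradiated group than in its unirradiated group, and Mutyh is higher in each LSK group than in its MP group. The pools lie furthest apart for Polb in WT LSK IR and for Neil3 in Parp-2-/- LSK IR cells.

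The first comparison asked which of these repair genes changed their messenger RNA within 2.5 hours of 5 Gy. Ung, which removes uracil from DNA, was lower in irradiated cells of both genotypes and both populations. Its level on irradiated arrays was 5.17 and 5.04 in Parp-2-/- LSK, 4.82 and 4.99 in WT LSK, 5.20 and 5.02 in Parp-2-/- MP and 5.18 and 5.13 in WT MP cells. On unirradiated arrays it was 5.33 and 5.29 in Parp-2-/- LSK, 5.34 and 5.19 in WT LSK, 5.36 and 5.34 in Parp-2-/- MP and 5.37 and 5.48 in WT MP cells. In all 4 pairs of groups both irradiated pools lay below both unirradiated pools, a pattern shown by 1.33% of all rows. Averaged over genotype and cell type the difference was -0.27 ± 0.07 (SE, 8 against 8 arrays; 95% interval -0.42 to -0.12), 0.831 times the unirradiated level, and Ung was called (limma, adjusted p = 0.0416). It was 1 of 9 genes called in this comparison, where 5.80% of all rows were called, 3.31% higher and 2.49% lower. The call is a narrow one: it was kept in 3 of 16 fits that left out 1 array (without pool 1 of Parp-2-/- LSK IR, pool 2 of WT LSK IR or pool 2 of WT LSK unirradiated), with adjusted p from 0.0348 to 0.111, while the difference stayed between -0.29 and -0.25. It was lost with the pool number as a block (adjusted p = 0.055), after cyclic loess normalisation (0.0511), over all rows with or without a symbol (0.0594) and with trend and robust settings of eBayes (0.0619). In the separate groups the Ung difference ranged from -0.36 ± 0.14 in WT LSK to -0.20 ± 0.14 in Parp-2-/- LSK cells, and none of the 4 was called.

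Genes of mitosis moved in the same comparison as Ung. Of 13 mitosis genes with a row, 11 were called lower after irradiation, with a median difference of -0.91 against -0.02 over all rows. Their mean level ran from 6.54 to 7.72 on irradiated arrays and from 7.70 to 8.44 on unirradiated arrays, so the ranges just overlapped. Of 23 genes of DNA replication with a row, 1 was called lower, with a median of -0.01, and 9 of 10 p53 target genes were called higher, with a median of 1.99. Markers of progenitor types moved too: 2 of 7 erythroid and megakaryocyte markers, Klf1 (-0.77 ± 0.19, limma, adjusted p = 0.035) and Gata1 (-0.65 ± 0.15, adjusted p = 0.0225), were called lower, with a mean level of the list from 5.53 to 7.18 on irradiated and 5.34 to 7.70 on unirradiated arrays. Of 8 granulocyte and monocyte markers Elane was called higher (0.73 ± 0.17, adjusted p = 0.0273), and of 8 LSK and stem cell markers Hoxa9 was called lower (-0.32 ± 0.08, adjusted p = 0.0486). The part of these changes in the Ung difference was not tested, and in sorted pools fewer cells of a kind and less RNA per cell cannot be told apart.

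Ogg1, which removes 8-oxoguanine, stood apart in unirradiated WT LSK cells. It read 5.64 and 5.23 in WT LSK IR cells and 6.21 and 6.21 in WT LSK unirradiated cells. The other readings, the irradiated WT LSK pools included, lay between 5.23 and 5.90. The WT LSK difference after irradiation was -0.78 ± 0.19 (95% interval -1.19 to -0.36), the lowest of the 9 genes there, and it missed the threshold (limma, adjusted p = 0.0625). In Parp-2-/- LSK cells Ogg1 read 5.63 and 5.81 after irradiation and 5.56 and 5.65 without it, a difference of 0.12 ± 0.19. In Parp-2-/- MP cells it read 5.85 and 5.32 after irradiation and 5.66 and 5.75 without it. In WT MP cells it read 5.63 and 5.62 after irradiation and 5.90 and 5.76 without it, so the irradiated pools were lower without overlap in the 2 WT pairs and overlapped the unirradiated pools in the 2 Parp-2-/- pairs. Xrcc1 and Neil3 were also apart in 2 of 4 pairs, both with higher irradiated pools. The share of all rows apart in 2 of 4 pairs was not computed. Averaged over the 4 pairs the Ogg1 difference was -0.25 ± 0.09 (adjusted p = 0.19), not called.

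Of the other glycosylases, none was called after irradiation. Smug1, a further uracil glycosylase, had an averaged difference of -0.01 ± 0.08 and Neil1, which removes oxidised pyrimidines, one of -0.04 ± 0.11. Mutyh, which removes adenine paired with 8-oxoguanine, had -0.07 ± 0.07. Neil3, a further glycosylase of oxidised bases, had 0.20 ± 0.18. Its pools after irradiation were 7.12 and 5.91 in Parp-2-/- LSK, 6.55 and 6.97 in WT LSK, 7.11 and 6.56 in Parp-2-/- MP and 7.17 and 6.98 in WT MP cells. Its unirradiated pools were 7.10 and 7.03 in Parp-2-/- LSK, 6.64 and 5.97 in WT LSK, 6.14 and 6.53 in Parp-2-/- MP and 6.92 and 6.43 in WT MP cells. Both MP pairs were higher after irradiation without overlap, and both LSK pairs overlapped. Neither MP difference was called (0.50 ± 0.36 in Parp-2-/- and 0.40 ± 0.36 in WT cells), and the share of all rows with this pattern was not computed.

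The shared late steps of the pathway showed no called change after irradiation. Xrcc1 averaged 6.83 ± 0.12 on irradiated and 6.65 ± 0.22 on unirradiated arrays (SD, n = 8 each), a difference of 0.18 ± 0.11 (limma, adjusted p = 0.455). Lig3 averaged 6.52 ± 0.16 on irradiated and 6.39 ± 0.31 on unirradiated arrays (SD, n = 8 each), a difference of 0.13 ± 0.12. Polb averaged 7.08 ± 0.52 on irradiated and 6.95 ± 0.32 on unirradiated arrays (SD, n = 8 each), a difference of 0.13 ± 0.17. The 95% intervals of these differences were -0.05 to 0.41 for Xrcc1, -0.13 to 0.39 for Lig3 and -0.25 to 0.50 for Polb. Polb read 7.11 and 7.38 in Parp-2-/- LSK IR and 6.80 and 6.34 in Parp-2-/- LSK unirradiated cells, without overlap (0.68 ± 0.34, limma, adjusted p = 0.481). In WT LSK cells Polb read 7.18 and 5.84 after irradiation and 6.67 and 7.08 without it, with overlap. The share of all rows without overlap in a single pair of groups was not computed. In the 4 separate comparisons of irradiated with unirradiated cells limma called 0 of 9 genes, where 1.47% of rows were called in Parp-2-/- LSK, 1.80% in WT LSK, 0.588% in Parp-2-/- MP and 0.671% in WT MP cells. At an unadjusted p under 0.05 there were 2 of 9 genes in WT LSK cells, Ung and Ogg1, and 0 in each of the others, while 2709 of all rows passed in Parp-2-/- LSK, 3373 in WT LSK, 1321 in Parp-2-/- MP and 1432 in WT MP cells.

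**Figure D2:**
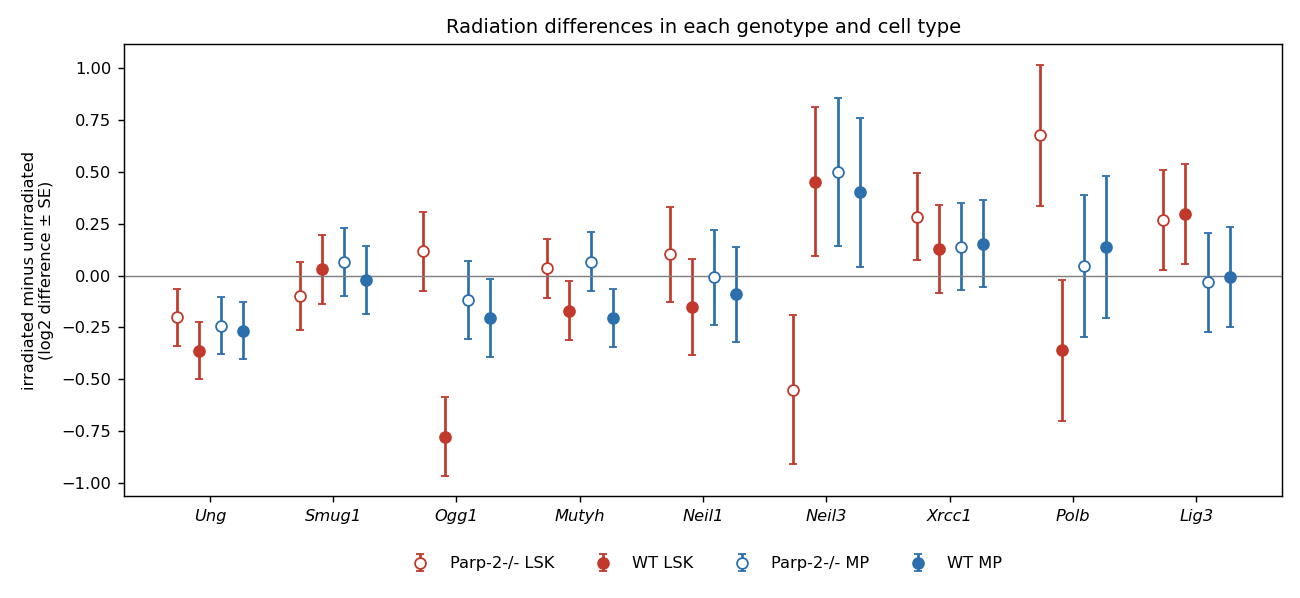
Difference between irradiated and unirradiated cells for each of the 9 genes in Parp-2-/- and WT LSK and MP cells, in log2 units with bars of 1 SE from limma, open for Parp-2-/- and filled for WT cells. The 4 Ung differences lie between -0.36 and -0.20, and the Ogg1 difference of WT LSK cells, -0.78, lies apart from the other 3.

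The second comparison set LSK cells against MP cells. Mutyh was higher in LSK cells of each genotype, irradiated or not. It read 5.09 and 4.96 in Parp-2-/- LSK IR, 5.24 and 4.98 in WT LSK IR, 5.06 and 4.91 in Parp-2-/- LSK unirradiated and 5.33 and 5.23 in WT LSK unirradiated cells. It read 4.93 and 4.87 in Parp-2-/- MP IR, 4.73 and 4.72 in WT MP IR, 4.85 and 4.82 in Parp-2-/- MP unirradiated and 4.87 and 4.99 in WT MP unirradiated cells. Both LSK pools lay above both MP pools in all 4 pairs, a pattern shown by 7.01% of all rows. The difference was 0.35 in WT unirradiated and 0.39 in WT IR cells (SE 0.14 each). It was smaller in Parp-2-/- cells, 0.16 unirradiated and 0.12 after IR (SE 0.14 each), where the median row was 0.09 higher in LSK cells in both states. The genotype by cell type term, -0.23 ± 0.14, was not called. The averaged difference was 0.25 ± 0.07 (SE, 8 against 8 arrays; 95% interval 0.10 to 0.41), 1.19 times the MP level, and Mutyh was called (limma, adjusted p = 0.0164). It was 1 of 9 genes called where 39.3% of all rows were called, 21.4% with the higher level in LSK cells and 17.9% with the lower, so the 9 genes were not called more often than rows at large.

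The Mutyh call depends on how the arrays are scaled. The values of LSK arrays had a narrower spread than those of MP arrays (SD over rows 1.89 to 2.03 in LSK and 2.05 to 2.13 in MP), and the median row was 0.12 higher in LSK cells as deposited, 0.04 higher after quantile normalisation and 0.01 higher after cyclic loess. Relative to that median, Mutyh was 0.14 higher as deposited, 0.15 higher after quantile normalisation and 0.12 higher after loess. The call was lost under both (difference 0.18, adjusted p = 0.0731, and 0.12, adjusted p = 0.21).

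With the values as deposited, Polb and Lig3 had the lowest LSK minus MP differences of the 9 genes and neither was called. After quantile normalisation and after loess Polb had -0.25 and -0.23 and Lig3 -0.07 and -0.08. Ung, at -0.16 and -0.21, then lay below Lig3. Polb ran from 5.84 to 7.38 with a median of 6.94 on LSK arrays and from 7.04 to 7.51 with a median of 7.20 on MP arrays. The Polb difference was -0.43 ± 0.17 (limma, adjusted p = 0.0626), and it was called without pool 1 of WT LSK IR, which leaves the pool at 5.84 alone in its group (difference -0.59, adjusted p = 0.00363). Lig3 ran from 5.76 to 6.64 on LSK arrays and from 6.35 to 6.72 on MP arrays, a difference of -0.21 ± 0.12 (adjusted p = 0.168), called without pool 2 of Parp-2-/- LSK unirradiated, where the pool at 5.76 was left alone (-0.30, adjusted p = 0.0403). In both genes the lowest pool was an LSK pool with a partner far above it.

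Ung differed by -0.11 ± 0.07 between LSK and MP cells (adjusted p = 0.191). Its median was 5.18 on LSK and 5.27 on MP arrays, and the LSK pools were lower without overlap in 3 of 4 pairs. The Parp-2-/- unirradiated pair among them differed by only -0.04 ± 0.14, and the share of all rows apart in 3 of 4 pairs was not computed. After loess, where Mutyh was lost, Ung was the 1 gene called (-0.21, adjusted p = 0.0379). As deposited, Smug1 differed by 0.15 ± 0.08, Neil1 by 0.16 ± 0.11, Xrcc1 by 0.07 ± 0.11, Ogg1 by 0.06 ± 0.09 and Neil3 by -0.07 ± 0.18, none of them called. These values also moved with the scaling. After quantile normalisation and after loess Xrcc1 had 0.24 and 0.24, uncalled, above Mutyh at 0.18 and 0.12. Neil3 had 0.08 and 0.09. After loess Neil1 had -0.03 and Smug1 -0.01. In the 4 separate comparisons of LSK with MP cells limma called 0 of 9 genes, where 3.34% of rows were called in Parp-2-/- unirradiated, 4.07% in Parp-2-/- IR, 5.23% in WT unirradiated and 2.45% in WT IR cells. At an unadjusted p under 0.05 there were Mutyh in WT unirradiated cells, and Mutyh and Polb in WT IR cells, with 5221 and 5255 of all 22961 rows, and none of the 9 genes in the Parp-2-/- comparisons, with 4193 of all rows in unirradiated and 4981 in IR cells.

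**Figure D3:**
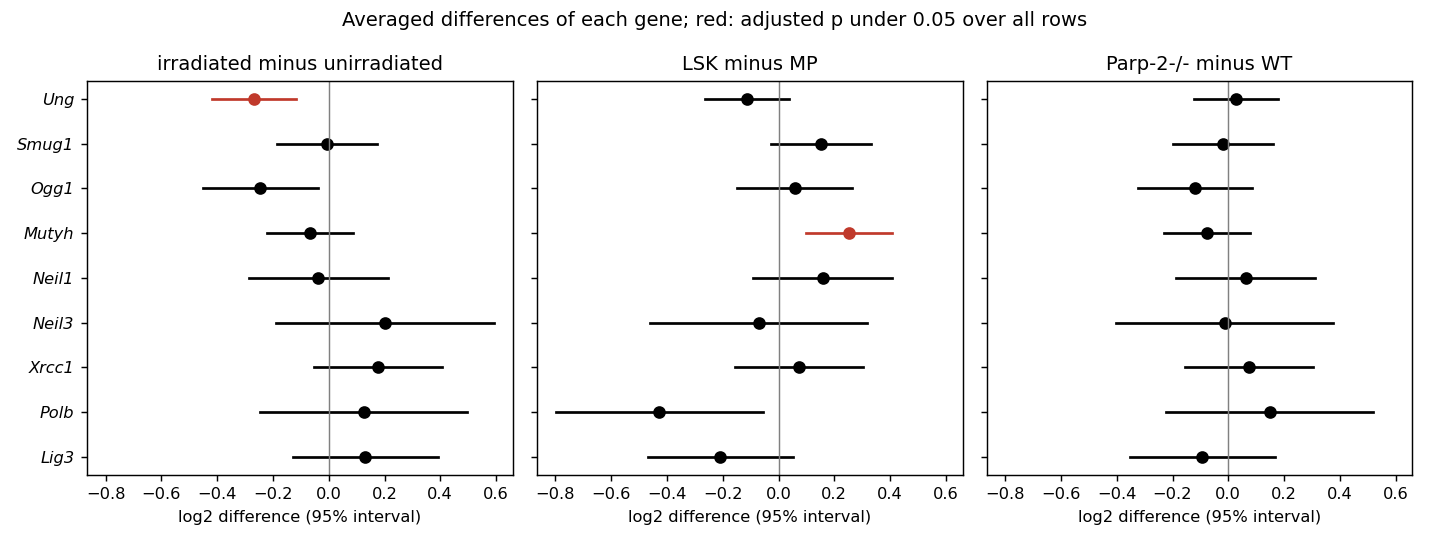
Averaged differences of the 9 genes for irradiated minus unirradiated, LSK minus MP and Parp-2-/- minus WT cells, in log2 units with 95% intervals from limma, in red where called. Ung at -0.27 in the first and Mutyh at 0.25 in the second are the 2 called values, and the genotype differences lie between -0.12 and 0.15.

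The third comparison asked whether cells without Parp-2 carried other levels of the genes that work beside it. None of the 9 genes was called. The averaged differences between Parp-2-/- and WT cells ran from -0.12 ± 0.09 (Ogg1) to 0.15 ± 0.17 (Polb), with adjusted p of at least 0.97. Xrcc1, which binds the chains that Parp-2 makes, averaged 6.77 ± 0.21 in Parp-2-/- and 6.70 ± 0.18 in WT cells (SD, n = 8 each), a difference of 0.07 with a 95% interval of -0.15 to 0.30. Lig3 averaged 6.40 ± 0.29 in Parp-2-/- and 6.50 ± 0.20 in WT cells (SD, n = 8 each), a difference of -0.09 with a 95% interval of -0.35 to 0.17. Limma called 0.00871% of all rows in this comparison, and at an unadjusted p under 0.05 there were 0 of 9 genes and 1227 of all rows.

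Within single groups the genotypes lay furthest apart for Neil3, Polb and Ogg1, all in LSK cells, and none of the 3 was called. Neil3 was higher in unirradiated Parp-2-/- LSK cells without overlap, at 7.10 and 7.03 in Parp-2-/- and 6.64 and 5.97 in WT cells (0.76 ± 0.36, limma, adjusted p = 0.545). Polb differed by 0.73 ± 0.34 in LSK IR cells, where the pools overlapped. Ogg1 was lower in unirradiated LSK cells without overlap, at 5.56 and 5.65 in Parp-2-/- and 6.21 and 6.21 in WT cells (-0.61 ± 0.19, adjusted p = 0.317), and it was the 1 gene of the 9 with an unadjusted p under 0.05 in any of the 4 separate genotype comparisons. Limma called 0 of 9 genes in each of the 4, where it called 0% of rows in LSK unirradiated, 0.0174% in LSK IR, 0.00436% in MP unirradiated and 0.00871% in MP IR cells. The number of rows at an unadjusted p under 0.05 was 2137, 2193, 247 and 411 in the same order. The share of all rows without overlap in these pairs was not computed.

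Whether the response to radiation differed between genotypes or populations was tested with interaction terms. For Ogg1 the radiation difference of Parp-2-/- LSK cells exceeded that of WT LSK cells by 0.89 ± 0.27 (95% interval 0.31 to 1.47, unadjusted p = 0.00577), and after adjustment it was not called (limma, adjusted p = 0.33). In MP cells the same term was 0.09 ± 0.27, and averaged over both populations it was 0.49 ± 0.19 (adjusted p = 0.915). The Ogg1 term in LSK cells and the genotype difference above share the WT LSK unirradiated pools. Among the interaction terms within single populations, genotypes or irradiation states, this term had the lowest unadjusted p of the 9 genes. Such terms were meant only for genes whose groups moved in opposite directions without overlap, which Ogg1 in LSK cells did not. The share of all rows for this term was not computed. Averaged over the third factor, 0 of 9 genes were called for cell type by irradiation, genotype by irradiation and genotype by cell type, where limma called 0%, 0% and 0.00436% of all rows. At an unadjusted p under 0.05 there were 0, 1 (Ogg1) and 0 genes, against 1503, 1201 and 1111 of all rows.

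Other genes of the pathway were taken from a list of 29, of which 28 had a row. After irradiation 2 of the 28 were called higher and none lower, both of them enzymes that remove ADP-ribose, beside 3.31% of all rows called higher and 2.49% lower. Parg, the poly(ADP-ribose) glycohydrolase, differed by 0.69 ± 0.09 (limma, adjusted p = 0.00047) and Adprhl2, the ADP-ribosylserine hydrolase, by 0.33 ± 0.07 (adjusted p = 0.0178). Both were called after quantile normalisation and after loess too, and the count of genes called higher was 1 with trend and robust settings, without pool 1 of Parp-2-/- MP unirradiated and without pool 1 of WT MP IR. Apex1 (-0.06 ± 0.09), Fen1 (0.27 ± 0.16) and Lig1 (0.00 ± 0.09), which carry out backbone cutting, flap removal and ligation, were not called, nor were Parp1 (-0.11 ± 0.08) and Parp2 (0.21 ± 0.13). Between genotypes Parp2 alone of the 28 was called, and Parp1 differed by -0.12 ± 0.08 (adjusted p = 0.968).

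Between LSK and MP cells many of the other pathway genes differed. With the values as deposited, 16 of 28 had a called lower level in LSK cells and 1 a called higher one, beside 17.9% and 21.4% of all rows. The called genes read above the array median on 15 or 16 arrays, whereas these shares are over rows of all levels. Among AP-site and end-processing genes 4 of 6 were lower, with Aplf, a histone chaperone and end-processing factor, at -0.78 ± 0.09 (adjusted p = 7.34e-05), Apex1 at -0.42 ± 0.09 (adjusted p = 0.00551), the DNA-AMP remover Aptx at -0.68 ± 0.19 and Tdp1, which frees trapped topoisomerase, at -0.62 ± 0.23. Among genes of long-patch synthesis 4 of 8 were lower, with the flap endonuclease Fen1 at -1.23 ± 0.16 (adjusted p = 0.000179), the clamp loader subunit Rfc1 at -0.47 ± 0.07, Pold3 at -0.42 ± 0.10 and the sliding clamp Pcna at -0.38 ± 0.09, while Lig1 had -0.22 ± 0.09 (adjusted p = 0.0647).

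The ADP-ribosylation genes were split. Hpf1, the cofactor that directs the Parp enzymes to serine, was lower in LSK cells at -0.58 ± 0.09, Parp2 at -0.59 ± 0.13 and Parp1 at -0.37 ± 0.08, and Parp3, a further break-sensing enzyme, was higher at 0.46 ± 0.07 (limma, adjusted p = 0.000578). Of the nucleotide-pool genes and other polymerases 3 of 4 were lower: Nudt1, which destroys oxidised purine nucleotides, at -0.84 ± 0.27, Dut, which keeps dUTP out of DNA, at -0.57 ± 0.08, and the mitochondrial polymerase Polg at -0.27 ± 0.08. The glycosylases Nthl1 (-0.31 ± 0.10) and Mbd4 (-0.28 ± 0.10) were 2 of 4 lower.

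These counts also move with the scaling. After quantile normalisation 9 of the 28 were lower and 1 higher, and after loess 8 and 1, beside 10.8% and 11.1% of all rows called lower. Parp1 had -0.16 after quantile normalisation (adjusted p = 0.153) and -0.11 after loess (0.316), and Parp2 kept its call at -0.41 after quantile normalisation (0.039) and not at -0.37 after loess (0.0548). Apex1 (-0.21 and -0.16), Mbd4 (-0.11 and -0.12), Pold3 (-0.22 and -0.17), Nudt1 (-0.63 and -0.59) and Tdp1 (-0.59 and -0.61) were called under neither, Pcna was called at -0.35 after quantile normalisation and not at -0.21 after loess, and Nthl1 at -0.35 after loess and not at -0.30 after quantile normalisation. Aptx, Aplf, Hpf1, Fen1, Rfc1, Dut and Polg were called lower under all 3 scalings, and Parp3 was the gene called higher in each. The share of all called rows that were higher in LSK cells was 54.5% as deposited, 44.1% after quantile normalisation and 39.9% after loess. Of the 23 DNA replication genes 21 were called lower in LSK cells, with a median of -0.55, and their mean level, 7.30 to 7.63 on LSK arrays and up to 8.20 on MP arrays, did not overlap between the populations. Their part in the differences of the pathway genes was not tested.

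**Figure D4:**
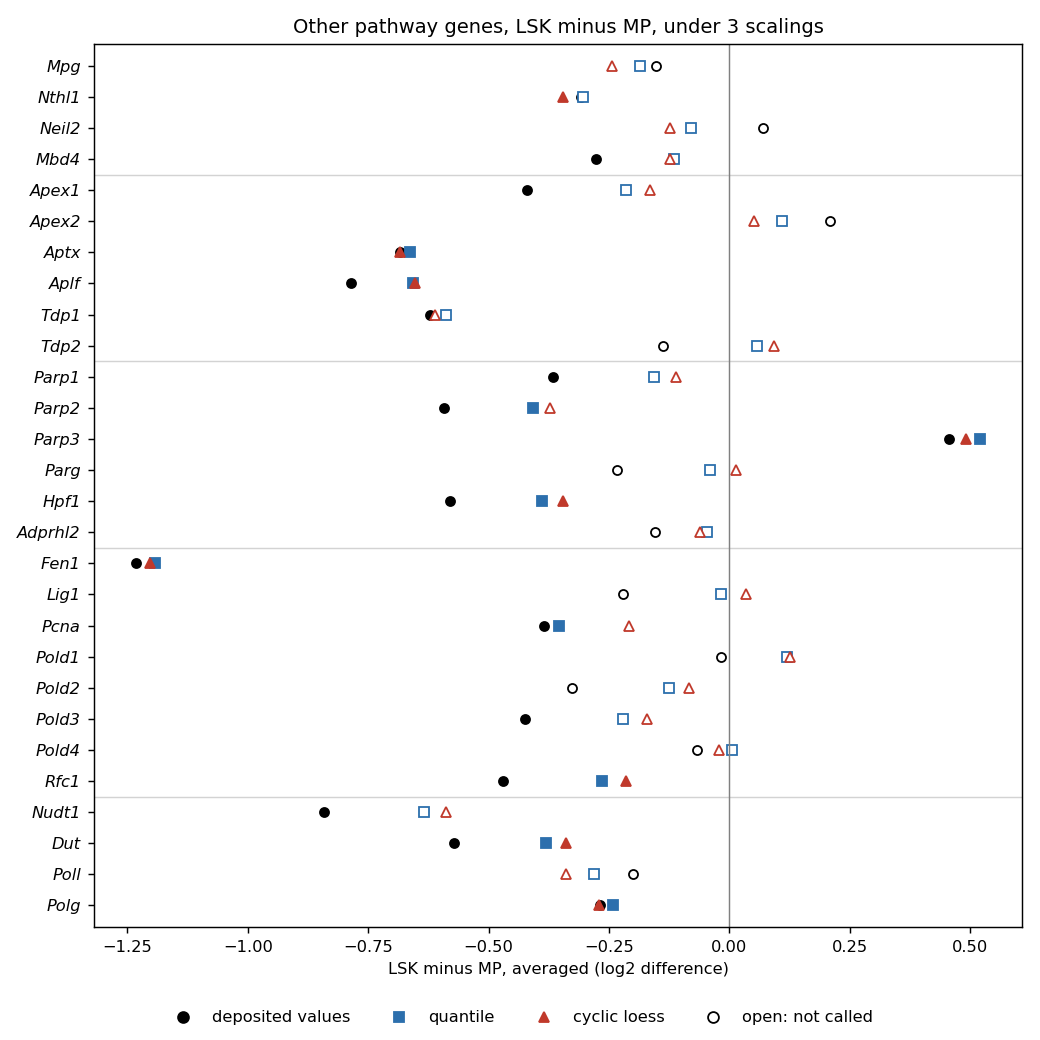
Averaged LSK minus MP difference of the 28 other genes of the pathway in log2 units, as deposited and after quantile and cyclic loess normalisation, filled where called and grouped by role. Fen1 lies lowest at -1.23 as deposited, Parp3 is the gene called higher, and 16 filled points as deposited become 9 and 8 under the other scalings on the lower side.

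The 9 genes did not follow one another closely across the 16 arrays. The Pearson correlation of their levels ran from -0.56 (Lig3 and Smug1) to 0.67 (Mutyh and Smug1), and it was -0.19 for the partners Xrcc1 and Lig3. Among 17159 genes the levels most like those of Ung over the 16 arrays were of Kif20b (r = 0.88), Cdk1 (0.87) and Pomk (0.87). For Mutyh they were Eno2 (0.94), Mcoln3 (0.93) and Fam187b (0.92), and for Ogg1 they were Fbxo2 (0.85), Slc17a3 (0.85) and Ccnl2 (0.79). The nearest genes were Tnip1 for Xrcc1 (0.80), Erlec1 for Lig3 (0.85), Chchd1 for Polb (0.82), Cdh18 for Neil1 (0.86), Slc39a1 for Neil3 (0.81) and Adam6b for Smug1 (0.89). Neil1 lay below the array median on all 16 arrays and Smug1 on all but 2, which limits what their correlations can show. These arrays share the 8 groups and their differences, so the correlations describe likeness over this design.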

How the data were processed

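Total RNA of 16 pools of sorted cells was hybridised to Affymetrix arrays after amplification and biotin labelling, per the labels' protocols. The authors deposited 1 log2 intensity per transcript cluster and array. R 2.15, affy 2.10, limma and RMA are named, without role or order, in the submitters' processing notes. Neither the log base nor which arrays were normalised together is stated there, and a log2 scale was taken from the range of the values. No further scaling was applied.

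Of 34760 rows, 21640 carried 1 gene symbol, 1321 several and 11799 none, and the 22961 rows with a symbol were tested. Group means of the 8 groups were fitted with limma 3.58.1 in R 4.3.3 (lmFit, then eBayes with 4.35 prior and 8 residual degrees of freedom), and p-values were adjusted by Benjamini-Hochberg over all tested rows for each of 18 comparisons. Interaction terms within single populations, genotypes or irradiation states were fitted and adjusted in the same way, beside those comparisons. The median standard error was 0.207 between 2 groups and 0.103 in an averaged comparison, and the number of arrays limits the precision. Levels of different probes were not compared.

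The genes named were the 10 members, the genes of the pathway lists called in an averaged comparison with Parp1, Parp2, Apex1, Lig1 and Fen1, and the 3 genes most correlated with a member. Of the cell marker lists, some of the genes called in an averaged comparison were named as well. Members and lists were chosen with earlier results of these data known. Alternatives were quantile normalisation, cyclic loess (added after seeing the data), rows at or above the median, all rows, eBayes with trend and robust settings, the pool number as a block, and leaving out each array. Comparisons of single groups were also fitted on the arrays of the compared groups alone, and radiation and genotype ones on the arrays of their cell type alone. Pool numbers were not used to pair the samples in the main fit. Deviations of same-numbered pools correlated from -0.17 to 0.23 over 28 pairs of groups, with 2 above 0.1 and 1 below minus 0.1. Taken over all pairs together, these values cannot exclude pairing in some of them.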

Additional observations from a re-analysis of the deposited data

Results flagged for a closer look

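Mutyh was singled out because its pools moved in opposite directions after irradiation in the MP cells of the 2 genotypes. It read 4.93 and 4.87 in Parp-2-/- MP IR and 4.85 and 4.82 in Parp-2-/- MP unirradiated cells, a difference of 0.07. In WT MP cells it read 4.73 and 4.72 after irradiation and 4.87 and 4.99 without it, a difference of -0.20. The pools did not overlap in either pair, and the share of all rows with this pattern was not computed. The test of the difference between them, 0.27 ± 0.20 (SE), was not called (limma, unadjusted p = 0.199, adjusted p = 1). The 4 WT MP and Parp-2-/- MP groups lay close to the array median for this gene, and the WT MP IR pools lay below it.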

How the results depend on the processing

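Of 678 single-gene values under another setting, 652 stayed on the same side of the threshold, 19 lost a call, 7 gained one and none that was called changed sign; 33 uncalled values did. Ung after irradiation (averaged) went uncalled, leaving 0 genes called, after cyclic loess (-0.23, adjusted p = 0.0511), over all rows (adjusted p = 0.0594), with trend and robust settings (adjusted p = 0.0619) and with the pool number as a replicate block (adjusted p = 0.055); the count ran from 0 to 1 without 1 array. Mutyh in LSK against MP cells stayed called in 16 of 16 fits without 1 array (0.22 to 0.29), which held 1 to 2 genes, and the count was 0 after quantile normalisation and 0 over rows at or above the median, where Mutyh is left out. Ogg1 in WT LSK cells after irradiation was the 1 gene called after quantile normalisation (-0.82, adjusted p = 0.0375), and the count ran from 0 to 1 without 1 array, with Ogg1 called without pool 1 or pool 2 of Parp-2-/- MP IR. Polb in LSK against MP WT IR cells gave 0 to 1, called without pool 1 of WT LSK IR (-1.41, adjusted p = 0.034). Other pathway genes lower in LSK cells numbered 9 after quantile normalisation, 8 after loess and 12 to 16 without 1 array, and those higher after irradiation 1 with trend and robust settings and 1 to 3 without 1 array. Rows called in the averaged comparisons without 1 array numbered 835 to 1504 for irradiation, 6346 to 10465 for cell type and 2 to 7 for genotype, and for cell type 4429 after quantile normalisation, 4248 after loess and 5130 over rows at or above the median. The replicate block changed no other call among the 9 genes. Apart from the effect of fewer rows or arrays, the cause was not tested. With 2 pools a group the median standard error of a difference between 2 groups was 0.207, which limits what single groups can show.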
